A study of Xenopus laevis with 4 samples.

Results

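The genes described here are those of the Wnt pathway that the array could read. They are the ligands, the proteins that process and release them, their receptors and co-receptors, the secreted antagonists and the Dishevelled proteins. The beta-catenin destruction complex with the casein kinase 1 family, and beta-catenin and its inhibitor, are also included. So are the TCF factors with their Groucho/TLE corepressors, and the planar polarity proteins. Members were found by name, from a fixed set of symbol stems (wnt, fzd, sfrp, frzb, dkk, lrp5, lrp6, ror, wif1, rspo, porcn, wls, dvl, axin, apc, gsk3, csnk1, ctnnb1, ctnnbip, nkd, lef1, tcf7, tle, vangl and prickle). The name match uses no measured value, but the members, roles and lists were chosen with earlier results of these data known. The rule found 92 probesets, a probeset being the group of short probes that reads one transcript, out of 15491 tested, of which 9304 carried 1 gene symbol. These 92 carried 71 symbols and stood for 57 genes once the homeologs of Xenopus laevis, an allotetraploid frog whose gene copies end in L or S, were counted together. Another 2 probesets that matched a Wnt gene and a further symbol were left out.

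The study set N1 pseudoblastemas against WT blastemas of X. laevis tadpole hindlimbs. N1 tadpoles carried 1 insertion of a transgene in which the heat shock promoter Hsp70 drives Noggin, a secreted inhibitor of BMP ligands, with GFP under a lens promoter as its marker. By the paper, the 2 groups were siblings of the same mating. The WT tadpoles, which lacked the transgene, were heat shocked on the same schedule (34°C for 30 minutes). The first shock came 3 hours ahead of the amputation and the later ones 24 and 48 hours after it. Hindlimbs were amputated at NF stage 52 through the future ankle, and the distal stump was taken 3 days later. Each RNA sample pooled 20 limbs and went on its own array, with 2 biological replicates per group, so each comparison below rests on 2 N1 arrays and 2 WT arrays from a single transgenic line.

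Wnt ligands are secreted lipid-modified proteins. On a receiving cell they bind a Frizzled receptor together with the co-receptor Lrp5 or Lrp6, which through Dishevelled stops the destruction complex of Axin, APC, GSK3 and casein kinase 1 from marking beta-catenin for breakdown, and beta-catenin then enters the nucleus and displaces Groucho/TLE corepressors from TCF/LEF factors at target genes. Other ligands, with Wnt5a as the usual example, act through Ror receptors and the planar polarity proteins Vangl and Prickle and steer cell shape and movement. In vertebrate limbs Wnt signals maintain the apical ectodermal ridge and pattern the dorsal side, and in frog and fish appendages beta-catenin signalling is known to be needed for regeneration.

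Values that bear on the labels and the tissue were read first. Noggin's own probeset, nog.L, read 75.6 and 52.2 in N1 and 91.8 and 95.5 in WT (adjusted p = 0.667, limma), but whether its probes lie within the coding sequence carried by the transgene is not known here, so it is no check of the labels. The control probeset for EGFP had 123 and 108 on the N1 arrays and 16.1 and 29.4 on the WT arrays. In a fit that kept the control probesets its adjusted p was 0.155 (limma). The GFP of the transgene is under a lens promoter, and the arrays hold limb tissue. Log2 signals of the N1 pair correlated across all probesets with r = 0.942 and those of the WT pair with r = 0.953. Pairs across the groups were not correlated, so these values do not check the labels. The hindlimb factor pitx1.L read 469 and 296 on the N1 arrays and 286 and 364 on the WT arrays. Pigment cell genes stood apart on N1 replicate 1, where the summed signal of their 3 probesets was 3678. The sum was 1212 on N1 replicate 2, and 585 and 669 on the WT arrays. Skeletal muscle genes leaned the same way, with 14 of their 16 probesets higher on N1 replicate 1 than on N1 replicate 2, although 8 of the 16 lay in the dimmest 25% of the array. Red cell genes were mostly higher in N1 (5 of 6 probesets), with summed signals of 63809 and 76207 against 32649 and 26466 on the WT arrays. Of 5 genes listed for the apical epithelial cap, 3 were read, by 9 probesets. All 9 were higher in N1, with summed signals of 42551 and 53117 against 25795 and 23718, most of it from fn1.S. The sum therefore mainly reads that gene. The 4 at an unadjusted p under 0.05 (limma), which 6.82% of all probesets passed higher in N1, all read fn1.S, a fibronectin gene. Its brightest probeset alone had 21105 and 25524 on the N1 arrays and 12927 and 12731 on the WT arrays. No fgf8.L or dlx3 probeset passed that threshold. In sections of limbs amputated at knee level, the paper found the cap of N1 limbs absent or poorly formed. The part of pigment, muscle, red and cap cells in the Wnt values was not tested.

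No Wnt probeset passed an adjusted p of 0.05, and the clearest differences were 4 probesets lower in N1 at an unadjusted p under 0.05: both copies of the secreted antagonist frzb, the receptor ror2.L and the corepressor tle2.L. The test was limma on log2 signals with Benjamini-Hochberg adjustment over all 15491 probesets. Across the array 17 probesets (0.11%) passed the adjusted threshold higher in N1 and 2 (0.0129%) lower in N1, and 0 of the 92 Wnt probesets did in either direction. At an unadjusted p under 0.05, 0 of 92 Wnt probesets were higher in N1, beside 1057 (6.82%) of all, and 4 of 92 (4.35%) were lower in N1, beside 664 (4.29%) of all. Over all levels, the Wnt share of lower probesets was thus close to that of the array. In either direction, 4 of 42 Wnt probesets with a signal at or above the array's median passed that threshold, beside 1188 of 7746. Below the median 0 of 50 did, beside 533 of 7745.

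The groups were also compared by overlap and by fold. Both N1 arrays lay above both WT arrays in 17 Wnt probesets (18.5%), against 24.2% of all probesets, and below them in 12 (13.0%), against 17.9% of all. This balance turned with the scaling of the arrays: it was 10 Wnt probesets above and 16 below with quantile normalisation, where 2996 of all probesets lay above and 3435 below, and 10 and 16 with median centring, where 2889 lay above and 3732 below. Fold changes were counted over the brighter probesets, those with a mean log2 signal no lower than the array's median, 42 of them Wnt probesets. Those over 1.5-fold higher in N1 were lrp5.L and the antagonist dkk2.L, 2 of 42 (4.76%) beside 8.29% of all. Those over 1.5-fold lower were the 4 named above, 4 of 42 (9.52%) beside 5.91% of all.

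The median Wnt probeset was 0.16 higher in N1 on the log2 scale, and that of all probesets was 0.07 higher. The 42 Wnt probesets at or above the median level split evenly, 21 higher and 21 lower in N1, with a median difference of 0.01. The other 50 were mostly higher in N1, 39 against 11, with a median of 0.40, and all dim probesets of the array had a median of 0.20. Of these 50, 34 lay in the dimmest 25% of the array, under a signal of 39.3. Dim members are given below as counts unless 1 is singled out.

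**Figure D1:**
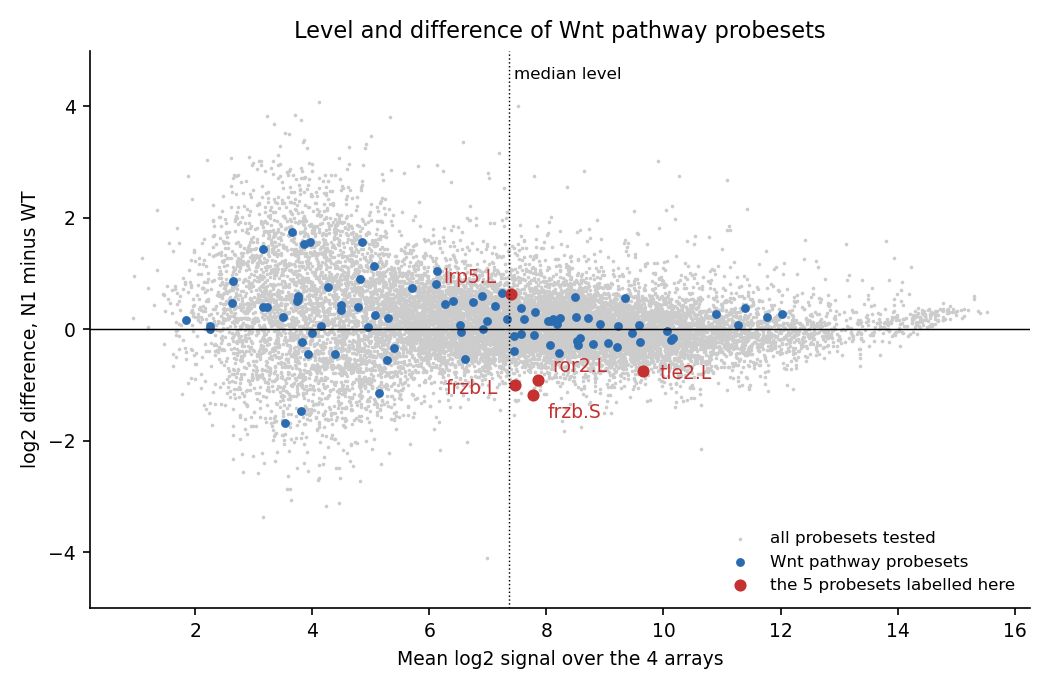
Each point is a probeset, placed by its mean log2 signal over the 4 arrays (x axis) and its N1 minus WT difference in log2 signal (y axis), with Wnt probesets drawn over all probesets tested. The 5 labelled Wnt probesets lie at or above the median level, frzb.S, frzb.L, ror2.L and tle2.L below 0 and lrp5.L above it, while the spread of the Wnt probesets widens toward low signals as that of all probesets does.

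Among the secreted antagonists, the 2 homeologs of frzb were the Wnt probesets with the largest differences at or above the median level. Frzb is a Frizzled-related protein that binds Wnt ligands outside the cell, first described from cartilage and from the Xenopus gastrula. The frzb.S probeset had 163 and 128 on the N1 arrays and 315 and 340.5 on the WT arrays. The frzb.L probeset had 135 and 114 on the N1 arrays and 209 and 297 on the WT arrays. In both, every N1 array lay below every WT array, and for frzb.S the replicates of a group were closer to each other than to the other group.

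Mean frzb.S signal was 146 ± 24.7 in N1 and 328 ± 18.3 in WT (SD, n = 2 each), 2.25-fold lower in N1, with a log2 difference of -1.18 (SE 0.29, 95% interval -1.84 to -0.52, unadjusted p = 0.0032 and adjusted p = 0.195, limma). Mean frzb.L signal was 125 ± 14.7 in N1 and 253 ± 62.3 in WT (SD, n = 2 each), 2.03-fold lower in N1, with a log2 difference of -1.004 (SE 0.33, interval -1.75 to -0.25, unadjusted p = 0.0146 and adjusted p = 0.308, limma). With all 4 arrays kept, both probesets had an unadjusted p under 0.05 (limma) in 7 of 7 alternative settings. With an array left out, the difference ran from -1.35 to -1.01 for frzb.S and from -1.26 to -0.75 for frzb.L. Because probes of near-identical copies can bind each other's transcripts, the homeologs are not independent readings.

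Cartilage genes were also mostly lower on the N1 arrays. Of the 6 probesets for 5 of 6 cartilage genes, 5 were lower in N1, 3 of them at an unadjusted p under 0.05: col9a1.L, a cartilage collagen, with 99.7 and 107 on the N1 arrays against 302 and 296 on the WT arrays; col2a1.S, the main cartilage collagen, with 466 and 689.6 against 1124 and 790.3; and sox9.S, the chondrocyte regulator, with 389 and 436 against 804 and 610.2. Across the array 6830 of 15491 probesets were lower in N1, and 4.29% were so at an unadjusted p under 0.05 (limma). The other lower probesets overlapped between the groups. A further col9a1 probeset, col9a1-b, had 97.0 and 96.0 on the N1 arrays against 92.8 and 124 on the WT arrays (log2 difference -0.15). For cnmd.L the signals were 435 and 374 against 530 and 317 (difference -0.02). The matn1.L probeset, in the dimmest 25% of the array, was higher in N1, by 0.71. The summed signal of the cartilage list was 1546 and 1710 on the N1 arrays and 2887 and 2142 on the WT arrays. The part of these cells in the frzb, ror2 and tle2 values was not tested. In pooled bulk tissue, fewer cells of a type and less RNA per cell cannot be told apart.

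**Figure D2:**
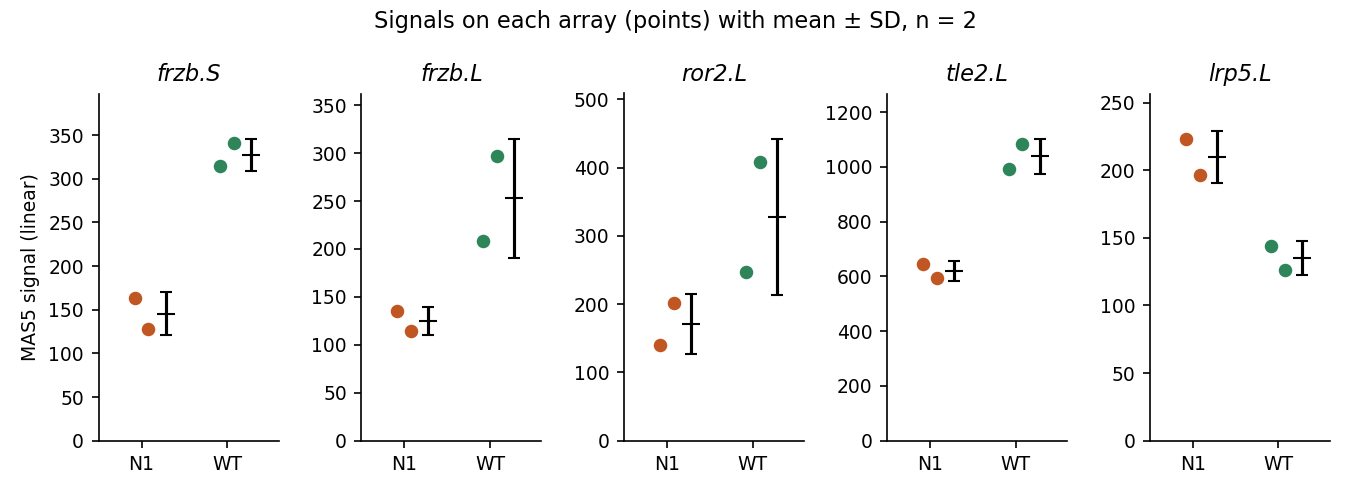
MAS5 signal (y axis, linear and starting at 0) on each array for the 5 Wnt probesets at or above the median level that differed over 1.5-fold without overlap, with N1 left of WT, each point 1 array and the bars the mean ± SD (n = 2). In frzb.S, frzb.L, ror2.L and tle2.L both N1 points lie below both WT points, and in lrp5.L both lie above.

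No other antagonist passed the unadjusted threshold. For dkk2.L, which binds Lrp5/6, the signals were 1260.3 and 497 on the N1 arrays and 488 and 587 on the WT arrays. Only N1 replicate 1 stood out, and N1 replicate 2 lay within the WT range. The log2 difference was 0.57 (interval -0.32 to 1.45, adjusted p = 0.639, limma). Without N1 replicate 1 it was -0.11, and without N1 replicate 2 it was 1.24, each from a fit with 1 N1 array. N1 replicate 1 also carried the high pigment cell signal given above, including pmel-a, a melanosome protein, with 1689 on N1 replicate 1 and 498 on the other N1 array against WT values of 198 and 277. Most muscle probesets were also higher on N1 replicate 1 than on N1 replicate 2, such as tnnc2.S, a troponin, with 279.99 and 42.9 against 40.8 and 17.6. The brightest were not: ckm.L had 1384 and 1671 on the N1 arrays, and atp2a1.S had 975 and 1356. The part of pigment and muscle cells in the dkk2.L value was not tested.

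The Wnt-binding antagonist sfrp2.S had 772 and 1435 on the N1 arrays and 1322 and 1094 on the WT arrays, overlapping groups with a log2 difference of -0.19 (interval -0.86 to 0.47). Singled out after their values were seen, dkk1.S, another Lrp5/6 inhibitor, had 219 and 303 on the N1 arrays against 428 and 281 on the WT arrays, and wif1.S, a secreted Wnt-binding protein, had 251 and 245 against 237 and 169.9. The groups overlapped for dkk1.S and were apart by a small margin for wif1.S. Neither passed the test (adjusted p = 0.657 and 0.753, limma). In all, 7 antagonist probesets were higher in N1 and 4 lower, with a median of 0.22, and the 4 in the dimmest 25% of the array (both frzb2.L probesets, sfrp1.L and sfrp5.L) were among the higher ones.

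The ligands were dim on this array. Of 16 probesets for 12 genes, 1 lay at or above the median level and 11 lay in the dimmest 25%. That one was wnt7b.L, a ligand of the ectoderm in other vertebrates, with 220.3 and 215 on the N1 arrays and 146 and 190.4 on the WT arrays. For wnt3a.S, a ligand that acts through beta-catenin, the signals were 150.01 and 242 on the N1 arrays and 131 and 111 on the WT arrays. In both genes every N1 array exceeded every WT array.

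Their log2 differences were 0.38 for wnt7b.L (interval -0.31 to 1.08, adjusted p = 0.686, limma) and 0.66 for wnt3a.S (interval -0.17 to 1.49, adjusted p = 0.55), and neither passed the unadjusted threshold. Wnt5a, chosen after its values were seen, as the ligand known to bind Ror2, was read by 2 probesets. The wnt5a.S probeset had 195 and 110 on the N1 arrays and 132 and 71.0 on the WT arrays, and the wnt5a-a probeset had 150.2 and 119 against 145 and 101. The groups overlapped in both, with log2 differences of 0.60 and 0.14.

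Of the 16 ligand probesets, 14 were higher in N1 and 2 lower, with a median of 0.39, and 3 had both N1 arrays above both WT arrays (24.2% of all probesets did). Among all probesets below the median level, 4825 of 7745 were higher in N1. The count was 13 against 3 with median centring, 11 against 5 with quantile normalisation, 11 against 5 with 64 added before log2, and 10 against 6 without N1 replicate 1 or without WT replicate 2. The ligand wnt6.S, named after its values were seen, shows how little a dim probeset fixes, since its 2 probesets gave log2 differences of 1.14 and -1.14. Likewise wnt11.S had 168 on N1 replicate 1 but 50.5 on N1 replicate 2, beside 53.2 and 51.7 on the WT arrays.

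Proteins of ligand release were read more brightly. Wls, the carrier that brings Wnt proteins to the cell surface, read 1814 and 2393 on the N1 arrays and 1478 and 2022 on the WT arrays at wls.S, with overlap, and 300.2 and 298 against 281 and 282 at wls.L, without. Differences were 0.27 for wls.S (interval -0.25 to 0.79) and 0.09 for wls.L (interval -0.48 to 0.66). The acyltransferase gene porcn.L, which attaches the lipid, overlapped between groups, with a difference of 0.18. All 3 probesets were higher in N1 as deposited, and 2 of 3 were with median centring, where wls.L was lower, without N1 replicate 1 and without WT replicate 2. With an array left out the wls.S difference ran from 0.0429 to 0.495.

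Among the receptors, ror2.L was lower in N1 and lrp5.L higher. Ror2 is a receptor tyrosine kinase for Wnt5a that in the mouse is needed for limb cartilage growth. Its signals were 140.1 and 202 on the N1 arrays and 247 and 409 on the WT arrays, so the groups did not overlap, though the higher N1 array lay nearer to the lower WT array than the WT arrays lay to each other. Mean signal was 171 ± 43.8 in N1 and 328 ± 114 in WT (SD, n = 2 each), 1.91-fold lower in N1, with a log2 difference of -0.92 (SE 0.35, interval -1.71 to -0.12, unadjusted p = 0.0286 and adjusted p = 0.386, limma). With all 4 arrays kept, that p stayed under 0.05 in 6 of 7 alternatives, and was 0.0778 without the variance trend (limma). With an array left out the ror2.L difference ran from -1.28 to -0.55.

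Lrp5, with Frizzled the co-receptor of beta-catenin signalling, had lrp5.L values of 223 and 196 on the N1 arrays and 144 and 126 on the WT arrays. The N1 arrays were both above the WT arrays and the replicates of each group lay close together. Mean signal was 209.7 ± 19.2 in N1 and 135 ± 12.8 in WT (SD, n = 2 each), 1.55-fold higher in N1, with a log2 difference of 0.64 (SE 0.31, interval -0.07 to 1.35, unadjusted p = 0.0727 and adjusted p = 0.507, limma). Both lrp6.L probesets, for the related co-receptor, lay in the dimmest 25%.

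Frizzleds were read by 16 probesets of 8 genes. At fzd2.S the signals were 431 and 381 on the N1 arrays and 452 and 529 on the WT arrays, both N1 arrays below both WT arrays by a small margin (difference -0.27, interval -0.80 to 0.26, adjusted p = 0.708, limma). At the brighter fzd8.S probeset they were 463 and 804 on the N1 arrays and 657 and 524 on the WT arrays, with the N1 arrays on either side of the WT arrays and a difference of 0.06. Over all 20 receptor and co-receptor probesets, 16 were higher in N1 and 4 lower, a count that became 12 against 8 with median centring, with quantile normalisation and without N1 replicate 1, and 11 against 9 without WT replicate 2. The median was 0.26, and 11 of the 20 were in the dimmest 25%. Both N1 arrays lay above both WT arrays in 3 (24.2% of all probesets did) and below them in 2 (17.9% of all). Over the array, 8661 of 15491 probesets were higher in N1.

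Dishevelled, which carries the signal from Frizzled to the destruction complex, gave overlapping groups at its brighter probesets. The brightest dvl2.L probeset had 446 and 291 on the N1 arrays and 408 and 393 on the WT arrays, and dvl3.L had 213 and 159 against 233 and 163. Differences were -0.15 and -0.08. The remaining 2 dvl2.L probesets, both below the median level, disagreed in sign, at 1.04 and -0.53.

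The destruction complex was counted together with the casein kinase 1 family. In this role 12 of 20 probesets were higher in N1 and 8 lower, with a median of 0.13. Of the 12 higher ones, 5 read csnk1g1.S. Apart from the csnk1d, csnk1g1, csnk1g2 and csnk1g3 probesets, those of axin2.L, gsk3b.L, csnk1a1.L and csnk1a1.S were higher in N1. Those of apc.L, axin1.L, axin2.S and gsk3a.L were lower. The casein kinase 1 alpha gene csnk1a1.L, whose product primes beta-catenin for GSK3, had 2630 and 5333 on the N1 arrays and 3242 and 3221 on the WT arrays, the 2 WT arrays falling between the N1 arrays. Casein kinase 1 delta, csnk1d.S, had 3082 and 3061 at its brightest probeset on the N1 arrays and 2109 and 2626 on the WT arrays, without overlap (difference 0.38, interval -0.04 to 0.80, unadjusted p = 0.0685 and adjusted p = 0.499, limma). Its other probesets, chosen after their values were seen, ranged from -0.39 to 1.75, the largest of them in the dimmest 25%.

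For csnk1g1.S, which encodes a membrane-bound casein kinase 1 and was chosen after its values were seen, all 5 probesets were higher in N1, by 0.18 to 0.74. The brightest had 501 and 387 on the N1 arrays and 278 and 314 on the WT arrays (difference 0.57, interval -0.01 to 1.16, unadjusted p = 0.0524 and adjusted p = 0.457, limma). Probesets of 1 gene on an array share its RNA and are not separate replicates. Probesets of apc.L, axin1.L, gsk3a.L and gsk3b.L all lay in the dimmest 25% of the array.

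Axin2, a scaffold of the complex and also a usual readout of beta-catenin signalling, was chosen after its values were seen for that reason. The axin2.S probeset had 705 and 739 on the N1 arrays and 947 and 745 on the WT arrays, both N1 arrays lower but the nearest pair almost equal. The axin2.L probeset had 131 and 226 on the N1 arrays and 162 and 141 on the WT arrays, with overlap. The differences, -0.22 (interval -0.71 to 0.27) and 0.19 (interval -0.65 to 1.02), lay on opposite sides of 0.

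Beta-catenin itself was bright and close between the groups. The brighter ctnnb1.L probeset had 4344 and 4912 on the N1 arrays and 3330 and 4335 on the WT arrays, separated by a small margin (difference 0.28, interval -0.16 to 0.72, adjusted p = 0.637, limma). The ctnnb1.S probeset had 2144 and 2994 on the N1 arrays and 1869.9 and 3093 on the WT arrays, with the N1 arrays inside the WT range (difference 0.08, interval -0.54 to 0.69). All 4 catenin probesets, with ctnnbip1.L for a small inhibitor of beta-catenin, were higher in N1 as deposited and with quantile normalisation, 2 of 4 with median centring, and 2 of 4 without N1 replicate 2 or without WT replicate 1. The ctnnb1.L difference ran from 0.0918 to 0.47 with an array left out.

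The TCF factors and Groucho/TLE corepressors were the roles with no probeset higher in N1. All 5 TCF probesets and all 4 TLE probesets had lower mean log2 signals in N1, with medians of -0.28 and -0.25. Both N1 arrays lay below both WT arrays in 5 of the 9 (17.9% of all probesets did so). Among these 5, tle2.L and tcf7.S lay at or above the median level. The rest, tle4.S, tcf7l1.S and the dimmer tcf7l2.L probeset, lay below it, where single values fix little. At or above the median level there were 6 of the 9 probesets, all lower in N1. The unadjusted threshold was passed by 1 of 9 (4.29% of all did). Of all probesets, 6830 of 15491 were lower in N1. The count of 9 lower held with median centring, was 8 with quantile normalisation, where tle5.S was higher by 0.01, and was 6 without N1 replicate 2. These 9 probesets stand for 6 genes, and no test of them as a group was made.

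The one past the threshold was tle2.L, a Groucho corepressor that TCF factors recruit to keep target genes off. It had 645 and 593 on the N1 arrays and 994 and 1084 on the WT arrays, without overlap and with a gap wider than that between replicates. Mean signal was 619 ± 37.2 in N1 and 1039 ± 63.8 in WT (SD, n = 2 each), 1.68-fold lower in N1, with a log2 difference of -0.75 (SE 0.20, interval -1.20 to -0.29, unadjusted p = 0.00493 and adjusted p = 0.216, limma). With an array left out the tle2.L difference ran from -0.81 to -0.68.

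By contrast the short Groucho family member tle5, which lacks the repeat domain of the long forms, differed little: tle5.L had 1257 and 933 on the N1 arrays and 1176 and 1241 on the WT arrays, and tle5.S had 1113 and 1003 against 1071 and 1085. Their differences were -0.16 and -0.03, with overlap in both. The intervals of tle2.L and of tle5.S (-0.46 to 0.40) share values, and the difference between these genes was not tested.

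Of the TCF factors, tcf7l1.L, usually a repressor, had 458 and 252 on the N1 arrays and 402 and 389 on the WT arrays, the WT arrays lying between the N1 arrays. The brighter tcf7l2.L probeset had 432 and 556 on the N1 arrays and 552 and 609 on the WT arrays, with the groups just overlapping. Singled out after its values were seen, tcf7.S had 247 and 240 on the N1 arrays and 298 and 291 on the WT arrays, without overlap and with close replicates. The 3 differences were -0.22, -0.24 and -0.28, and none passed the test (adjusted p = 0.843, 0.744 and 0.738, limma). No named probeset for lef1 was analysed here.

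**Figure D3:**
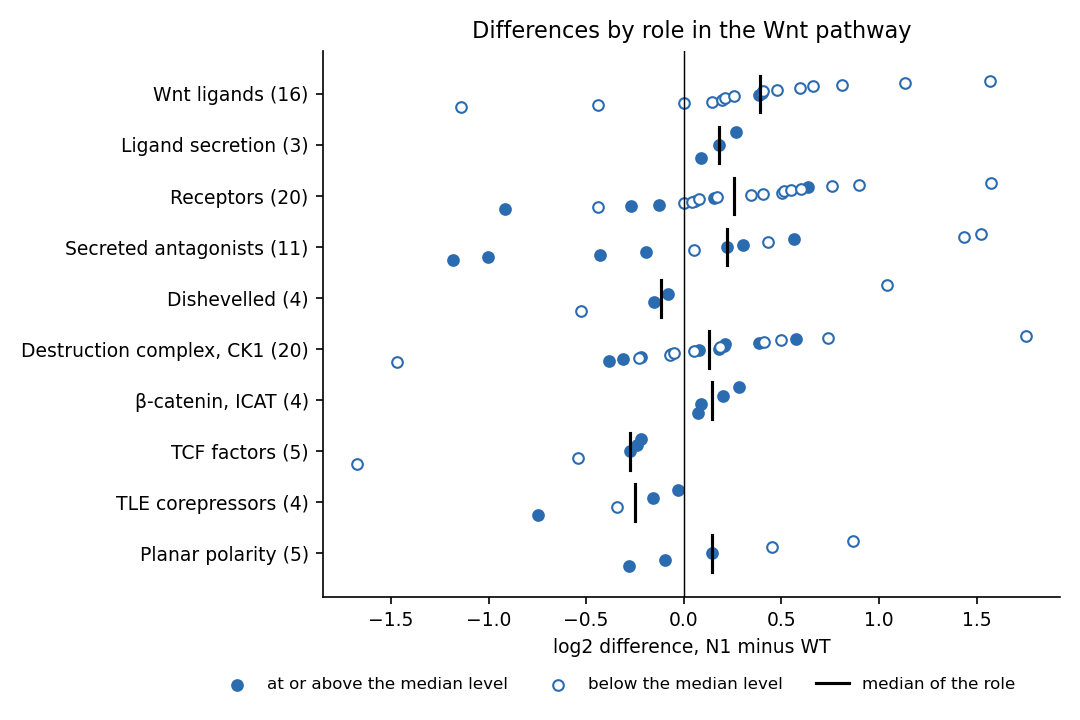
N1 minus WT difference in log2 signal of each Wnt probeset, grouped by role in the pathway, with filled points at or above the median level, open points below it, a bar at each role's median and the number of probesets in brackets. As deposited, all TCF and TLE points lie below 0 (8 of 9 with quantile normalisation), 14 of 16 ligand points lie above it (11 of 16 with quantile normalisation), and the widest scatter is in the dim probesets.

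The planar polarity genes overlapped between the groups at each of their brighter probesets. Prickle1 and Vangl2 are partner proteins that mark opposite sides of a polarised cell. The signals of prickle1.S were 299 and 382 on the N1 arrays and 287 and 586 on the WT arrays, and those of vangl2.S were 262 and 285 on the N1 arrays and 231 and 264 on the WT arrays. Differences were -0.28 (interval -1.08 to 0.52) and 0.15 (interval -0.46 to 0.75).

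Genes with several probesets give a further look at how far single values hold. Of 22 such genes, 15 had all their probesets on the same side of 0, 10 higher and 5 lower in N1, the 5 being frzb, prickle1, tcf7l1, tcf7l2 and tle5. The other 7 had probesets on both sides. The same count was not made over all genes of the array, so 15 of 22 cannot be read as unusual agreement. Among 14 genes read by 2 symbols, that is by both homeologs or by an older copy name, 11 had all probesets on the same side. The widest disagreements were in wnt6 and csnk1d, with ranges of 2.28 and 2.14 on the log2 scale, and the 2 frzb probesets differed by 0.18.

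**Figure D4:**
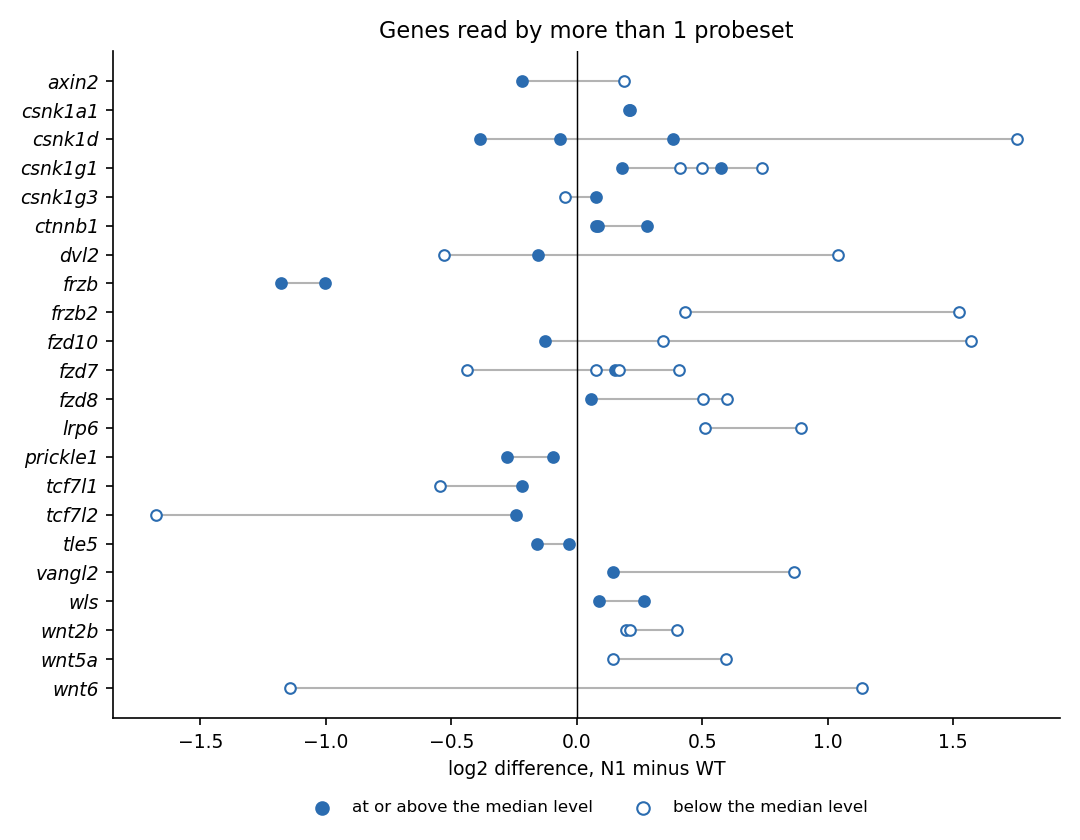
N1 minus WT difference in log2 signal of every probeset of the Wnt genes read by more than 1 probeset, 1 gene per line, with filled points at or above the median level and open points below it. The 2 frzb points lie together near -1, while csnk1d, dvl2, fzd10 and wnt6 have points far apart on both sides of 0.

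Differences between replicates were set beside those between group means. The 2 measures are unlike, since a mean of 2 arrays varies less than 1 array, so replicates can differ by more even where the groups differ. For all probesets at or above the median level, the median absolute log2 difference was 0.30 between the N1 replicates and 0.19 between the WT replicates. Between the group means it was 0.25. For the 42 Wnt probesets at or above the median level, the median absolute log2 difference was 0.36 between the N1 replicates and 0.27 between the WT replicates, against 0.22 between the group means. For the 50 dimmer ones the replicates differed by 0.80 in N1 and 0.73 in WT, against 0.46 between the group means. The median standard error was 0.78 for these and 0.28 for the brighter ones.

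**Figure D5:**
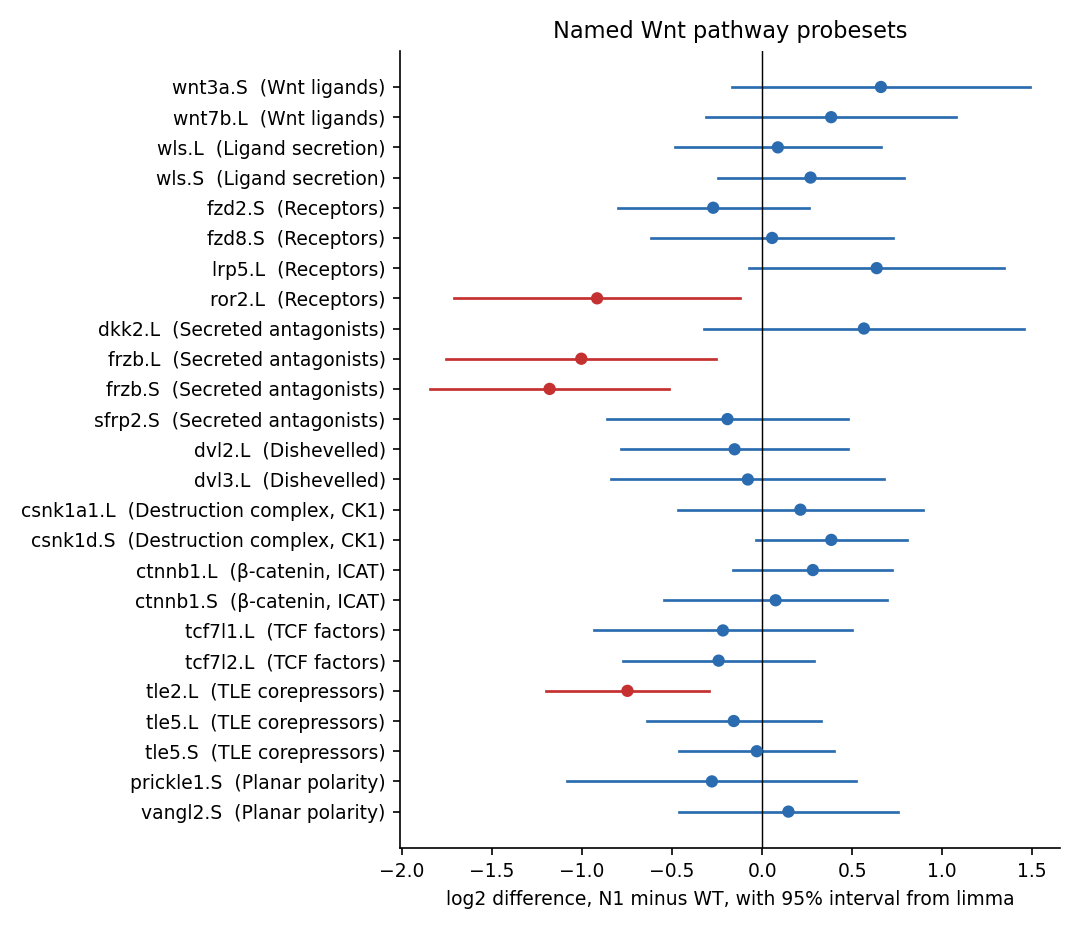
Log2 difference, N1 minus WT, with its 95% interval from limma for each named Wnt probeset, those with an unadjusted p under 0.05 in red. The intervals of frzb.S, frzb.L, ror2.L and tle2.L lie below 0, and the other 21 include 0.

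Other regulators of the pathway and its usual targets were read from lists. Of 43 other Wnt regulators, 17 genes had 31 probesets, 21 higher and 10 lower in N1, with a median of 0.22. At an unadjusted p under 0.05, 3 were higher (6.82% of all probesets were) and 0 lower, and 0 passed the adjusted threshold. The 3 were probesets of sdc4.L and sdc4.S, a cell surface proteoglycan that aids polarity signalling in Xenopus, and of dact1.S, a Dishevelled-binding protein, in the dimmest 25%. The far brighter dact1.L probeset went the other way, by -0.30. It had 1218 and 922 on the N1 arrays and 1160 and 1472 on the WT arrays, with overlap. The sdc4.S probeset had 960.0 and 1562 on the N1 arrays and 425 and 724 on the WT arrays, without overlap (difference 1.14, unadjusted p = 0.00642 and adjusted p = 0.235, limma).

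One of 4 sdc4 probesets, at sdc4.L, was lower in N1, by 0.50. Epidermal genes were also mostly higher in N1. Of their probesets, 16 of 19, for 8 of 10 genes, were higher in N1, 7 at an unadjusted p under 0.05 (limma). Over the array 8661 of 15491 probesets were higher in N1, 6.82% at that threshold. One keratin probeset, krt19.S, was lower at that threshold, with 219 and 207 on the N1 arrays against 616 and 470.2 on the WT arrays. Their summed signal was 30583 and 38749 on the N1 arrays against 27205 and 22451 on the WT arrays. Their part in the sdc4 values was not tested.

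Of 26 Wnt target genes, 17 had 31 probesets, 2 of them the axin2 probesets, with 18 higher and 13 lower in N1 and a median of 0.07, the same as that of all probesets to 2 decimals. At an unadjusted p under 0.05, 2 of 31 were higher, near the 6.82% of all probesets, and 0 lower, and 0 passed the adjusted threshold. These were jun.L, a transcription factor also induced by stress, with 234 and 218 on the N1 arrays and 136 and 103 on the WT arrays (difference 0.93, unadjusted p = 0.0189 and adjusted p = 0.341, limma), and en2.S, in the dimmest 25%. Cyclin D1, a cell cycle gene, had differences of 0.03 at ccnd1.S and -0.12 at ccnd1.L, and both overlapped between the groups.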

How the data were processed

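The authors made the values from Affymetrix X. laevis arrays hybridised with RNA amplified in 2 cycles of labelling, using the MAS5 algorithm in GCOS (versions not given in the sources used here). The deposited values are MAS5 signals, an intensity on a linear scale, in 1 column for each of 4 arrays. The authors scaled each array to a trimmed mean, and the mean after trimming 2% at each end was between 500.08 and 500.09 in all 4 columns. A trimmed mean fixes the bulk of an array, so a difference here is relative to it. The median signal was 175 and 167 on the N1 arrays and 161 and 157 on the WT arrays. Precision is set by having so few arrays, and the smallest p an exact permutation test of 2 against 2 arrays can give is 0.333 (two-sided). Detection calls were not used here.

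Of 15611 probesets, 120 Affymetrix controls were left out. Symbols came from the platform annotation: 9304 probesets had 1 symbol, 195 had several and 5992 had none. N1 and WT were compared on log2 signals, with nothing added, in R 4.3.3 with limma 3.58.1 (lmFit, then eBayes with its trend option), checked on simulated data. P-values were adjusted by Benjamini-Hochberg over all 15491 probesets, with a threshold of 0.05. The moderated linear model follows the study's methods. Fold changes are ratios of mean linear signals, counted only for probesets with a mean log2 signal no lower than the median over the array (a signal of 165).

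Probesets were named where the unadjusted or adjusted p was under 0.05, or where the groups did not overlap, differed over 1.5-fold and lay at or above the median level (5 probesets); also the other probesets of those genes, and the 2 brightest of each role, 25 in all. The members, lists and roles were chosen with earlier results of these data known. Alternatives were no variance trend, a level filter or none, quantile normalisation, median centring, each array left out, the replicate number as a block, and 16 or 64 added to the signals. Genome coordinates and sequences were not used here.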

Additional observations from a re-analysis of the deposited data

Results flagged for a closer look

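The control probeset for EGFP was read above only beside the labels and is in no Wnt comparison. It had a signal of 123 on N1 replicate 1 and 108 on N1 replicate 2, above the 16.1 and 29.4 of the WT arrays. In the N1 transgene a lens promoter drives GFP, and the arrays hold limb tissue. In a fit that kept the control probesets, the adjusted p of this difference was 0.155 (limma).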

How the results depend on the processing

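The differences of frzb.S, frzb.L, ror2.L, tle2.L and lrp5.L kept their sign in 11 of 11 alternatives each. The variance trend, the level filter and the replicate block leave a difference unchanged. The groups did not overlap in these probesets, so leaving out an array or adding a constant could not turn the sign. Only quantile normalisation and median centring could. With quantile normalisation the differences were -1.265, -1.11, -1.01, -0.72 and 0.54, in the order named. With median centring they were -1.29, -1.11, -1.025, -0.86 and 0.53. The labels do not say whether the replicate number pairs N1 and WT arrays. Arrays of the same number did not deviate together (correlation of deviations 0.03). With the number as a block, 0 Wnt probesets passed the adjusted threshold, and 0 were higher and 4 lower at an unadjusted p under 0.05. Wnt probesets higher in N1 at an unadjusted p under 0.05, 0 in the report, numbered 1 without the variance trend, 1 among probesets at or above the median level, 1 with quantile normalisation and 0 to 4 with an array left out. With all 4 arrays kept, 0 Wnt probesets passed the adjusted threshold in any setting. Fits with an array left out have 1 array in a group, which weakens their p-values, adjusted or not. From them only counts at the unadjusted threshold are given, as a limit and not as support. Those lower at an unadjusted p, 4 in the report, numbered 1 to 6 with an array left out, the 1 (frzb.S) without WT replicate 2. Over 1.5-fold higher in N1, 2 in the report, there were 16 with no level filter, 1 with quantile normalisation, 0 with median centring and 1 to 3 with an array left out. Over 1.5-fold lower, 4 in the report, there were 8 with no level filter and 3 to 7 with an array left out. Counts over all probesets moved with the settings too. At the adjusted threshold (limma), the 17 higher and 2 lower of all were 0 and 0 without the variance trend. With the replicate block they were 143 and 57. With no level filter, 2939 of all probesets were over 1.5-fold higher in N1 and 1410 lower. The 664 of all that were lower at an unadjusted p under 0.05 (limma) also rose or fell with an array left out. Both N1 arrays lay above both WT arrays in 17 Wnt probesets as deposited, 9 at or above the median level, 10 with quantile normalisation and 10 with median centring. They lay below in 12, 8, 16 and 16. The median Wnt difference of 0.16 was 0.0131 at or above the median level, 0.0560 with quantile normalisation, 0.0511 with median centring, 0.0665 with 64 added and 0.0402 to 0.18 with an array left out. Median centring moved the median of all probesets to -0.04. The sign turned for ctnnb1.S (-0.0339), wls.L (-0.0215) and fzd8.S (-0.0534) with median centring and for tle5.S (0.0126) with quantile normalisation. With an array left out, differences ran from -0.11 to 1.24 for dkk2.L, -0.64 to 0.26 for sfrp2.S, -0.29 to 0.44 for ctnnb1.S, -0.34 to 0.18 for dvl3.L, -0.30 to 0.72 for csnk1a1.L, -0.10 to 0.0456 for tle5.S, -0.37 to 0.0578 for tle5.L, -0.34 to 0.45 for fzd8.S, -0.79 to 0.23 for prickle1.S, -0.46 to 0.16 for dvl2.L and -0.65 to 0.21 for tcf7l1.L. Without a turn of sign they ran from -1.28 to -0.55 for ror2.L, 0.32 to 1.00 for wnt3a.S, 0.19 to 0.57 for wnt7b.L, 0.0429 to 0.495 for wls.S, -0.39 to -0.16 for fzd2.S, 0.23 to 0.54 for csnk1d.S, 0.0918 to 0.47 for ctnnb1.L, -0.42 to -0.0596 for tcf7l2.L and 0.0498 to 0.24 for vangl2.S. The cause was not tested. An array left alone in its group is assumed to vary like the other group's. No value exists for wnt3a.S under the level filter, since it lies below it. Low signal limits the 50 dimmer Wnt probesets. Their replicates differed by a median of 0.80 in N1 and 0.73 in WT on the log2 scale. The group means, which vary less than single arrays, differed by a median of 0.46.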
